A study of Mus musculus with 16 samples.

Results

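The genes described here are 44 genes of DNA replication and of nucleotide synthesis, taken by name from a list. They are 44 of the 55291 gene symbols in the tables, and all 44 were among the 18745 genes with enough counts to be tested. The cells were spleen cells of male C57BL/6 mice, passed through a 70 µm mesh and freed of red cells by lysis, and was sequenced as ribosomal RNA-depleted, stranded total RNA. The 4 wild-type groups had 0, 1, 2 or 5 days of a daily 62.5 mg dose of 5% imiquimod cream on the shaved back skin, and so had the 4 groups of PKR knockout (KO) mice. PKR is a kinase switched on by double-stranded RNA and is encoded by Eif2ak2; imiquimod activates Toll-like receptor 7, and the treatment serves as a mouse model of psoriasis. Each of the 8 groups had 2 libraries, and each library pooled the spleens of 2 mice, so n = 2 libraries per group throughout. None of the groups had cream without imiquimod or later sampling without cream, so the drug, the cream and the day cannot be told apart in a change from day 0. The labels describe neither the knockout allele nor the age of the mice.

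Before a cell copies its DNA, the origin recognition complex together with CDC6 and CDT1 loads rings of MCM2 to MCM7 onto origins, and geminin (Gmnn) blocks CDT1 once copying has begun. CDC45 and the GINS complex join the ring to form the active helicase, polymerase alpha with primase lays down primers, and polymerases delta and epsilon extend them on the sliding clamp PCNA. Ribonucleotide reductase, thymidylate synthase, thymidine kinase and dUTPase supply the deoxynucleotides, and most of these genes are known E2F targets that are transcribed as cells enter S phase. The spleen holds lymphocytes that divide after activation and, in mice, precursors of red cells and granulocytes that divide as well.

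The promoters of the members were searched for 3 short motifs. No motif was used to choose the members, but most of them are known E2F targets. The share with an E2F-type motif is therefore not independent of the choice. RefSeq promoters (build GRCm38.p6, 250 bases before to 50 after the start) were found for 34 of the 44 members; Mcm4, Gins1, Gins2, Gins4, Gmnn, Rfc2, Prim2, Pole, Dscc1 and Tipin were not in the table. An E2F-type motif, any of TTTCGCGC, TTTGGCGC, TTTCCCGC or TTTGCCGC on either strand, was present in 15 of the 34, or 44.1%. Over all 27025 genes of the table the share was 2.6%, and over the tested genes with a promoter it was 4.52%. The median GC content was 58.7% in the members' promoters and 60.0% in those of the tested genes. The 15 were Cdc6, Cdt1, Clspn, Gins3, Lig1, Mcm3, Mcm5, Mcm6, Mcm7, Orc1, Pola1, Pold1, Pole2, Rfc3 and Uhrf1, and 5 of them held 2 or more matches. The CCAAT box (CCAAT, either strand) was in 21 of the 34 members (61.8%) and in 42.9% of the tested genes, and the CHR-type element (TTTGAA or TTTAAA, either strand) was in 9 members (26.5%) and in 23.6%. In the promoters of 17 genes of G2 and mitosis the 3 motifs were in 1, 14 and 15. Outside the 44, the E2F-type motif was in 6 of 15 regulators of the entry into S phase (40.0%). It was in 8 of 33 other replication factors (24.2%) and 2 of 27 other nucleotide metabolism genes (7.41%), so it was not particular to the members. A match is a description of the letters and not a binding site. The members with an E2F-type match had a median log2 change of 1.86 on day 2 in the wild type, against 1.97 in the 19 without one and the ranges overlapped (0.65 to 3.35 and 1.32 to 3.42).

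The stretches around the matches are shown for 5 members whose match lay before the RefSeq start and outside every annotated exon, in lower case with the matching letters in capitals, 5′ to 3′ on the strand of the gene. In Mcm5 and Mcm6 the capitals hold 2 overlapping matches, 1 on each strand. The stretches of Mcm5, Mcm6 and Pola1 lay before the transcript measured here; those of Cdc6 and Uhrf1 lay in an intron of it, since these transcripts begin further upstream.
Mcm5 (chr8:75109326-75109397, plus strand): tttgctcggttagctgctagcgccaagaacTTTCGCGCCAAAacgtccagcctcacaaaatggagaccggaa
Mcm6 (chr1:128359774-128359845, minus strand): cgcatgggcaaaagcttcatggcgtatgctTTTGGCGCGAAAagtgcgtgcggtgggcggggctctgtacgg
Pola1 (chrX:93632256-93632323, minus strand): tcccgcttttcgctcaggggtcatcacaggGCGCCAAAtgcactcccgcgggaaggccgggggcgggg
Cdc6 (chr11:98907983-98908050, plus strand): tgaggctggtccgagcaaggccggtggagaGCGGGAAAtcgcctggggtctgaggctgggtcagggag
Uhrf1 (chr17:56304098-56304165, plus strand): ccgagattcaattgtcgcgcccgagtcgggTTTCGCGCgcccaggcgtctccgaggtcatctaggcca

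Library totals ran from 35026754 to 67333830 fragments, and the members had 33 to 11788 counts per library. Levels are given as CPM, counts scaled to the library's total fragments after correction for composition, and as FPKM, which divides by transcript length, where genes are set against each other. A change is a log2 value, given with its standard error (SE), and adjusted p-values come from edgeR's quasi-likelihood test over all 18745 genes; a gene is said to have risen or fallen where this value was under 0.05. The 2 wild-type libraries of day 1 differed from the rest in scaling: their scaling factors were 1.2 and 1.19, and the others had 0.93 to 1.07. Counts summed over all transcripts were 2.081 and 2.124 times the total fragments in these 2 libraries. In the others they were 1.479 to 1.795 times the total. The part of this ratio in the scaling factors was not tested. Before treatment Eif2ak2 had 24.9 and 26.6 CPM in wild-type libraries and 12.4 and 15.4 in knockout ones; after 1 day the values were 101 and 96.1 against 43 and 37, and after 5 days 29.2 and 30.2 against 15.8 and 18.8. On day 2 the library labelled KO_D2 replicate 1 had 47.5 CPM, above the wild type's 32.8 and 42.5, and KO_D2 replicate 2 had 21.5, so results of the knockout on day 2 are also given without the former.

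Markers of several spleen cell types moved with the day, and in bulk RNA fewer cells of a type and less RNA per cell cannot be told apart. Summed B cell markers were lower on later days, at 2362 to 2581 CPM on day 0, 1776 to 2250 on day 1, 1441 to 1801 on day 2 and 1298 to 1657 on day 5. Cd22 of this list went the other way at first. Its means on days 0, 1 and 2 were 280, 328 and 320 CPM in the wild type and 268, 330 and 299 in the knockout. Mean Pax5 went from 249 to 300 CPM on day 1 in the knockout. All other means of the list on days 1 and 2 were below day 0. Of 10 plasma cell markers, none at 0 in any library, 10 were higher on day 2 than on day 0 in each genotype. Their sum was 2622 and 2229 CPM on day 0, 4738 and 4184 after 1 day, 25188 and 18120 after 2 days and 5561 and 6356 after 5 days in the wild type, and 1848 and 1896, 4124 and 4023, 26268 and 15084, and 3622 and 4542 in the knockout. Ighm alone made up most of the plasma cell sum in every library, with 22800 and 16300 CPM after 2 days in the wild type. The sum therefore mainly follows this gene. Mean Irf4 went from 95.2 CPM untreated to 51.6 after 5 days in the wild type, and from 92.6 to 41.0 in the knockout. For Prdm1 these means were 6.11 and 7.11, and 5.48 and 4.94. All other plasma cell markers had higher means after 5 days than before treatment. Of 12 erythroid precursor markers, none at 0, all 12 were higher on day 5 than on day 0 in each genotype and none was higher on day 1 or 2. Their sum was 61.2 and 227 CPM on day 0, 57.3 and 19.1 after 1 day, 33.7 and 39.2 after 2 days and 2618 and 2136 after 5 days in the wild type, and 119 and 220, 17.0 and 53.6, 9.93 and 40.5, and 4609 and 3551 in the knockout. Summed T cell markers went from 383 to 446 CPM on day 0 to 54.1 to 99.1 on day 2. The part of these cell types in the results on the 44 genes was not tested.

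Nearly all of the replication and nucleotide synthesis genes rose within 1 day of treatment in both genotypes and stayed high through day 5. The summed level of the 44 genes was 607 and 617 CPM in the wild type on day 0, 2018 and 2090 after 1 day, 2294 and 2494 after 2 days and 2207 and 2613 after 5 days. In the knockout it was 572 and 573, 1979 and 2098, 2599 and 2217, and 3007 and 2419. In the wild type 43, 44 and 43 of 44 rose on days 1, 2 and 5 and none fell; in the knockout 43, 44 and 44 rose and none fell. Of all genes tested, 21.9%, 22.3% and 21.5% rose in the wild type on these days and 22.7%, 23.0% and 18.0% fell, and 20.7%, 24.0% and 22.8% rose in the knockout and 20.9%, 25.6% and 22.1% fell. The median log2 change of the members was 1.84, 2.00 and 2.11 in the wild type and 1.85, 2.06 and 2.31 in the knockout, beside medians between -0.07 and -0.01 for all genes tested. On the FPKM scale, log2(FPKM + 0.5) with limma, the share of higher among all calls went from 49.1% to 80.1% on day 1 in the wild type and from 49.8% to 66% in the knockout, and the members' medians there were 2.00 and 1.84. With a correction for GC content that share went from 54.3% to 40.5% and from 50.7% to 39.5% on day 5, where the members' medians were 1.94 and 2.14. In all 6 comparisons both treated libraries lay above both day 0 libraries in 44 of 44 genes. The same count was not made over all genes tested, so it is a description only. The 2 members that missed the threshold were Pold1 in the wild type (0.32 on day 1, adjusted p = 0.108, and 0.22 on day 5, 0.279) and Gins3 in the knockout on day 1 (0.33, adjusted p = 0.0933). Without the library labelled KO_D2 replicate 1, 43 members rose on day 2 in the knockout, and Gins4 no longer passed (adjusted p = 0.132).

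**Figure D1:**
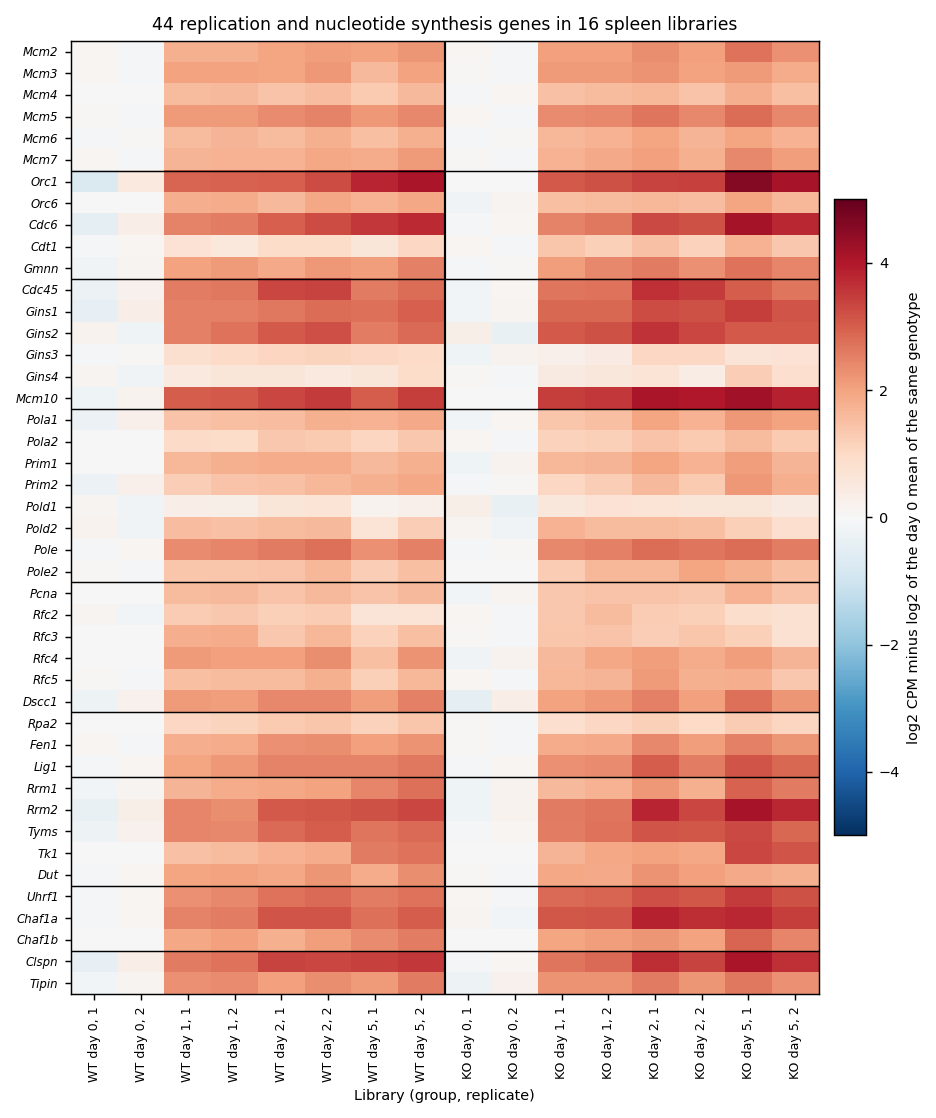
Heat map of the 44 genes (rows, in order of their role, with lines between the 9 roles) in the 16 libraries (columns). Colour is log2 CPM minus the log2 of the mean day 0 CPM of the same genotype; every treated library is above that mean in every row, and Pold1, Gins3 and Gins4 are the palest rows.

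The 6 subunits of the MCM ring, the motor of the replicative helicase, rose together and to similar levels. Mcm5 stood at 30.3 and 28.1 CPM on day 0 in the wild type, 128 and 127 after 1 day, 151 and 163 after 2 days and 130 and 155 after 5 days. Its log2 change was the largest of the 6 on day 1 (2.13, SE 0.142, adjusted p = 5.86e-09) and on day 2 (2.43). Mcm4 changed least on both days (1.60 and 1.49), from 36.2 and 36.3 CPM to 108 and 112 on day 1 and 98.2 and 105 on day 2. Neither gene's treated libraries overlapped those of day 0. Mcm4 had 89.5 and 111 CPM on day 5. Untreated knockout libraries had 26.8 and 23.8 CPM of Mcm5, and 130 and 134, 163 and 134, and 173 and 135 after 1, 2 and 5 days. For Mcm4 the knockout gave 33.7 and 37.9, then 99.7 and 107, 113 and 95.6, and 125 and 101. The separation from day 0 was thus seen in both genotypes. On the FPKM scale the most and the least abundant of the 6 differed by a ratio of 1.31 to 1.81 within any library, with 6.6 to 13.3 FPKM on day 0 and 24.4 to 58.3 FPKM on treated days. No MCM ring gene passed the threshold between days 1 and 2 or between days 2 and 5 in either genotype.

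Among the genes of origin licensing, Orc1 and Cdc6 changed most and Cdt1 least. Orc1, an ATP-binding subunit of the origin recognition complex, stood at 0.729 and 1.65 CPM on day 0 in the wild type, 9.03 and 9.27 after 1 day, 9.44 and 11.3 after 2 days and 16.6 and 20.1 after 5 days. In the knockout it was at 1.08 and 1.04, 9.0 and 9.55, 10.9 and 11.3, and 25.5 and 18.3. Day 0 and the treated days did not overlap in either genotype, and day 5 lay above day 2 in both. The log2 change on day 5 was 3.90 (SE 0.254, adjusted p = 5.35e-09) in the wild type, the largest of the 44, and 4.37 (SE 0.266, adjusted p = 1.27e-09) in the knockout. Cdc6, which recruits the MCM ring, had 3.27 and 5.62 CPM in the untreated wild type, 24.6 and 25.9 after 1 day, 35.7 and 42.2 after 2 days and 50.9 and 59.1 after 5. It rose by 2.49, 3.12 and 3.61 on these days, and no 2 days overlapped. The knockout had 3.92 and 4.47 CPM of Cdc6, then 23.5 and 26.2, 41.5 and 38.3, and 75 and 57.3 after 1, 2 and 5 days. Cdt1, the partner of CDC6 in loading, stood at 12.8 and 14.7 CPM on day 0 and at 22.8 and 19.7 on day 1 (0.63, SE 0.161, adjusted p = 0.00399). Later values were 26.2 and 25.7 on day 2 and 21.1 and 28.2 on day 5. Its levels in the knockout were 10.3 and 9.18 CPM, then 25.6 and 22.2, 26.6 and 21.4, and 32.3 and 25 after 1, 2 and 5 days, with a change of 1.30 on day 1. Gmnn, the inhibitor of CDT1, rose by 2.08, 2.04 and 2.31 in the wild type. The ratio of Gmnn to Cdt1 in FPKM was 0.539 to 0.77 in the 4 day 0 libraries and 1.1 to 1.72 in the 12 treated libraries, with no overlap. Orc6, another subunit of the complex, rose by 1.83, 1.77 and 1.85.

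The genes that turn the loaded ring into a moving helicase included the largest and some of the smallest changes. Mcm10, which helps to activate the helicase, stood at 2.83 and 3.68 CPM on day 0 in the wild type, 26.4 and 27.2 after 1 day, 33.0 and 37.1 after 2 days and 26.6 and 35.5 after 5 days. Its log2 change was 3.03 on day 1 (SE 0.168, adjusted p = 1.32e-09) and 3.42 on day 2, the largest of the 44 on both days. In the knockout Mcm10 went from 2.28 and 2.31 CPM to 25.2 and 26.9, 39.3 and 37.3, and 42.6 and 33.1 after 1, 2 and 5 days (day 1 change 3.50, SE 0.178, adjusted p = 2.13e-10). Cdc45, the helicase cofactor, reached its highest levels on day 2: 3.05 and 4.35 CPM on day 0 in the wild type, 21.7 and 23.1 after 1 day, 37.2 and 38.3 after 2 days and 22.2 and 25.7 after 5 days. The knockout gave 3.12 and 3.69, 21.6 and 22.5, 42.8 and 38.1, and 27.8 and 21.5 CPM. In both genotypes the day 2 libraries of Cdc45 stood above all libraries of days 1 and 5.

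The 4 GINS subunits, which act as 1 complex with CDC45 and the MCM ring, did not change alike. Gins1 rose by 2.50 and Gins2 by 2.65 on day 1 in the wild type. Gins3 rose by 0.87 (4.38 and 4.84 to 7.97 and 8.84 CPM; SE 0.152, adjusted p = 0.000175). Gins4 had the smallest change of the role, 0.54 (12.3 and 10 to 15.5 and 17.0 CPM; SE 0.158, adjusted p = 0.00938), and lost its call without WT_D0 replicate 2 or WT_D1 replicate 2 (highest adjusted p = 0.121); its call on day 2 ended without WT_D0 replicate 2 (adjusted p = 0.0761). Gins4 had 17.1 and 15.8 CPM on day 2 and 17 and 21.1 on day 5; the knockout gave 11.6 and 10.7, then 15.3 and 16.7, 18 and 14.3, and 26.1 and 20.1 after 1, 2 and 5 days. The levels of the 4 differed before treatment: Gins4 had 9.27 and 6.97 FPKM in the wild type, against 0.974 and 1.49 for Gins1 and 0.433 and 0.301 for Gins2. In the knockout Gins3 was at 4.79 and 6.39 CPM on day 0, 6.63 and 7.4 after 1 day and 11.6 and 11.5 after 2 days. Gins4 rose there on day 1 by 0.52 (adjusted p = 0.0139), a call that ended without KO_D0 replicate 2 or KO_D1 replicate 2 (highest adjusted p = 0.0894).

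Of the polymerases, the catalytic subunit of polymerase epsilon, which extends the leading strand, rose far more than that of polymerase delta, which extends the lagging strand. Pole stood at 10.4 and 11.7 CPM on day 0 in the wild type, 56.3 and 59.8 after 1 day, 67.5 and 73.9 after 2 days and 54.4 and 63.9 after 5 days (log2 change on day 1 2.39, SE 0.129, adjusted p = 1.32e-09). Knockout libraries had 10.4 and 11.2 CPM of Pole, then 57 and 62.3, 75 and 68.3, and 74.8 and 64 after 1, 2 and 5 days. Pold1 stood at 46.6 and 37.2, 52.6 and 51.9, 64.6 and 66.7, and 47.4 and 50.4 CPM. It passed only on day 2 in the wild type (0.65, SE 0.159, adjusted p = 0.0027). In the knockout Pold1 went from 45.3 and 28.9 CPM to 54.5 and 61.9 on day 1 (0.65, adjusted p = 0.00315), 59.6 and 56.7 on day 2 and 55.7 and 50.8 on day 5 (0.52, adjusted p = 0.0127). Without KO_D0 replicate 2, the lowest of these values, the calls of days 1 and 5 were lost; that of day 5 was lost also without KO_D5 replicate 1 and with a correction for GC content (highest adjusted p = 0.415). The ratio of Pole to Pold1 in FPKM was 0.108 to 0.187 in the day 0 libraries and 0.485 to 0.647 in the treated ones, without overlap.

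The accessory subunits moved otherwise. Pold2, the second subunit of polymerase delta, stood at 9.75 and 7.59 CPM on day 0, 25 and 24 after 1 day, 26.3 and 26.5 after 2 days and 13.8 and 20.4 after 5 days, so its change of 1.5 on day 1 was well above that of Pold1. Pole2, of polymerase epsilon, rose by 1.38 on day 1 and 1.55 on day 2. The primer-making complex rose as a whole: on day 1 Pola1, its catalytic polymerase subunit, rose by 1.45, Pola2 by 0.95, and the primase genes Prim1 and Prim2 by 1.71 and 1.35.

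The sliding clamp and its loaders rose early. Pcna, the clamp, was the most abundant of the 44 on the FPKM scale, with 33.9 and 29.6 FPKM on day 0 in the wild type and 118 and 119 on day 1, or 50.6 and 48.0 to 148 and 152 CPM (1.61, SE 0.13, adjusted p = 4.44e-08). Dscc1, of an alternative clamp loader that acts in sister chromatid cohesion, was among the least abundant, at 0.774 and 1.06 CPM on day 0, 4.05 and 3.87 on day 1 and 4.91 in both libraries of day 2, where its change of 2.40 was the largest of this role. Rfc4, of the main clamp loader, and Dscc1 had the largest changes of this role on day 1, equal at 2.09 (Rfc4 4.09 and 4.27 to 18.5 and 17.1 CPM). Rfc2 changed least on day 1 (1.33; 26.1 and 21.7 to 58.4 and 61.2 CPM) and on day 2 (1.24; 55.2 and 57.8 CPM), and had fallen to 37.3 and 38.7 CPM on day 5. Rfc4 had 17.4 and 20.7 CPM on day 2 and 11.9 and 20.1 on day 5, and Dscc1 3.94 and 5.19 on day 5. In the knockout Rfc4 was at 4.32 and 5.51, then 15.2 and 18.8, 21.2 and 17.7, and 20.9 and 15.8 after 1, 2 and 5 days. Rfc2 fell back there too, from 56.5 and 66.2 after 1 day and 54.6 and 50.5 after 2 days to 41 and 37.8 on day 5, having started at 23.7 and 21.1. Dscc1 gave 0.696 and 1.2 CPM in untreated knockout libraries and 3.8 and 4.24, 5.39 and 3.96, and 6.45 and 4.41 later, with no overlap. Rfc3 rose by 1.84 and Rfc5 by 1.55. These loader subunits share 1 complex, and their changes on day 5 ran from 0.67 for Rfc2 to 1.94 for Rfc4 in the wild type.

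The genes that protect single strands and join Okazaki fragments rose by amounts that increased from Rpa2 to Fen1 to Lig1. Rpa2, of the single-strand binding protein, went from 10.3 and 10.3 CPM on day 0 in the wild type to 21.2 and 22.2 on day 1 (1.08). Fen1, the flap nuclease, went from 15.9 and 14.0 to 52.7 and 54.1 (1.84). Lig1, the ligase that seals the fragments, went from 12.1 and 14.1 to 50.8 and 58.6 on day 1 (2.06, SE 0.152, adjusted p = 1.85e-08) and to 74.1 and 73.9 on day 2. Rpa2 had 25.3 and 26.9 CPM on day 2 and 22.7 and 26.6 on day 5, and Lig1 73.8 and 80.4 on day 5. The knockout gave 11.4 and 10.4 CPM of Rpa2, then 19.3 and 22.2, 24.8 and 21.8, and 26.6 and 22.8 after 1, 2 and 5 days, and 10.5 and 11.9 of Lig1, then 54.6 and 57.8, 90.7 and 66.1, and 99 and 80.9. In each of the 3 genes no treated library overlapped day 0.

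The genes of deoxynucleotide supply rose on day 1, and 4 of the 5 rose again at a later step, Rrm2 and Tyms from day 1 to day 2 and Rrm1 and Tk1 from day 2 to day 5. Rrm2, the S phase subunit of ribonucleotide reductase, stood at 10.8 and 17.1 CPM on day 0 in the wild type, 75.9 and 70.3 after 1 day, 117 and 120.0 after 2 days and 126 and 140.0 after 5 days; the day 1 change was 2.39 (SE 0.211, adjusted p = 6.84e-07). In the knockout it stood at 9.66 and 12.7, 66.9 and 71.3, 156 and 112, and 193 and 151 CPM. Rrm1, the large subunit, went from 25.9 and 31.4 CPM to 93.2 and 105 on day 1 and 156 and 192 on day 5. The ratio of Rrm2 to Rrm1 in FPKM was 0.704 to 0.992 on day 0, 1.22 to 1.48 on day 1, 1.9 to 2.19 on day 2 and 1.33 to 1.57 on day 5, so day 2 stood above every other day. Tk1, the cytosolic thymidine kinase, went from 6.32 and 6.22 CPM on day 0 to 17.4 and 18.6 after 1 day, 20.9 and 22.7 after 2 days and 37.8 and 41.7 after 5 days. Its change was the smallest of this role on days 1 and 2 (1.52 and 1.80); the knockout had 5.27 and 5.2 CPM, then 16.9 and 19.9, 20.9 and 19.8, and 53.3 and 45.9 after 1, 2 and 5 days. Tyms, thymidylate synthase, rose by 2.42 on day 1, the largest change of this role that day, and 2.91 on day 2. It had 3.16 and 4.43 CPM on day 0 in the wild type, then 20.7 and 20.1, 26.8 and 30.6, and 24.2 and 26.9, and in the knockout 3.39 and 3.87, then 21.6 and 24, 31.7 and 31.3, and 36.1 and 26.9. Dut, which removes dUTP, rose by 1.99 and 2.08.

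Genes that act outside S phase in the same reactions moved the other way, as measured in the list of other nucleotide metabolism genes. Rrm2b, the reductase subunit used by resting cells, stood at 22.3 and 22.1 CPM on day 0 in the wild type, 15.8 and 16.9 after 1 day, 10.4 and 10.7 after 2 days and 13.8 and 12.3 after 5 days, and fell on day 2 by 1.07 on the log2 scale. Tk2, the mitochondrial thymidine kinase, stood at 27.3 and 23.7, 17.2 and 19.0, 9.38 and 10.1, and 17.7 and 15.2 CPM, and fell on day 2 by 1.39. The knockout gave 23.1 and 30.7 CPM of Rrm2b and 25.8 and 23.6 of Tk2 on day 0, and 11.9 and 10.2 and 8.97 and 9.07 on day 2. In neither gene did day 2 overlap day 0. The ratio of Rrm2 to Rrm2b in FPKM went from 0.858 to 1.6 on day 0 to 8.63 to 10 on day 1 and 22.8 to 27.2 on day 2, and the ratio of Tk1 to Tk2 from 0.341 to 0.438 to 1.63 to 2.23 and 3.64 to 3.9. Among the origin recognition genes, Orc4, another subunit of the complex, went from 20.7 and 28.0 CPM to 17.5 and 17.8 on day 2 in the wild type, a fall of 0.47, while Orc1 and Orc6 rose.

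**Figure D2:**
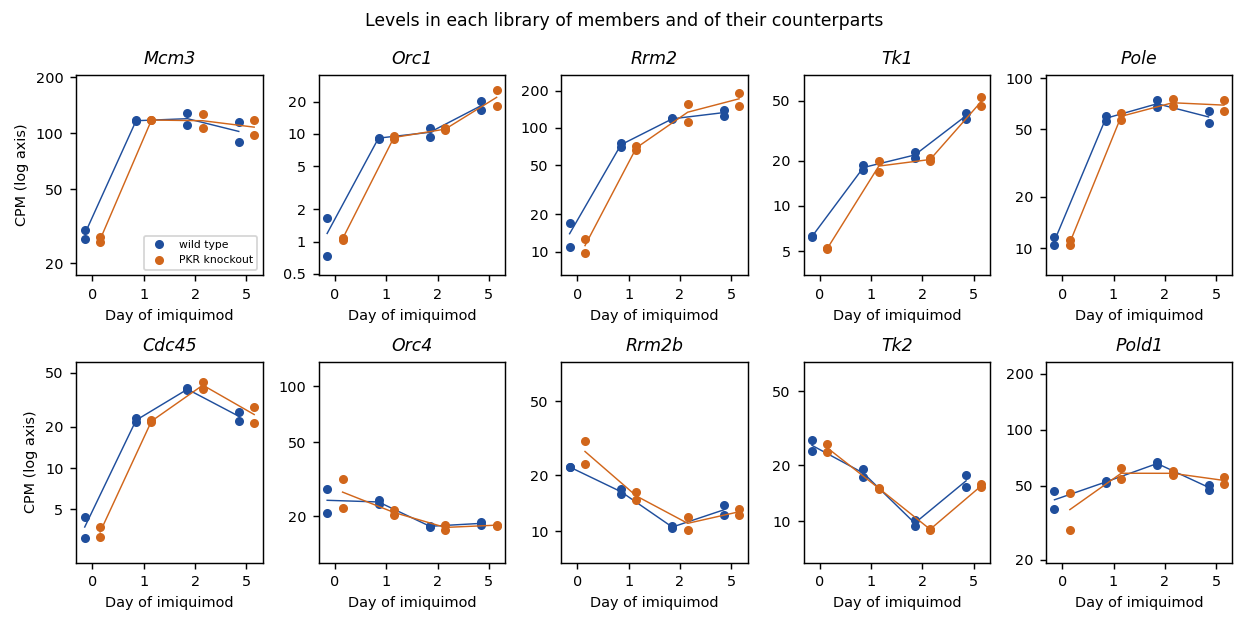
CPM on a log axis by day of imiquimod for 7 members and for Orc4, Rrm2b and Tk2, which are no members. Points are libraries, blue for wild type and orange for PKR knockout, and lines join the means of 2 libraries; Mcm3 and Pole level off after day 1, Cdc45 is highest on day 2, Orc1 and Tk1 are highest on day 5, and Rrm2b and Tk2 are lowest on day 2.

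Of the 5 genes of chromatin copying and fork protection, Clspn and Chaf1a changed most on day 2 in the wild type and Chaf1b least. Chaf1a, the large subunit of the histone chaperone that acts at the fork, went from 5.06 and 5.84 CPM on day 0 in the wild type to 30.5 and 32.0 on day 1 (2.52, SE 0.145, adjusted p = 1.61e-09) and 48.6 and 48.8 on day 2 (3.16). Its partner subunit gene Chaf1b changed least of this role, from 3.38 and 3.32 CPM to 12.7 and 13.8 on day 1 (1.99) and 11.4 and 14.1 on day 2 (1.93). Uhrf1, which carries DNA methylation onto the new strand, rose by 2.34 and 2.78. Clspn, encoding the checkpoint adaptor claspin, went from 4.09 and 6.89 CPM to 33.0 and 36.4 on day 1 (2.65) and 56.6 and 56.2 on day 2 (3.35). Tipin, of the fork protection complex, went from 6.14 and 7.29 CPM to 33.0 and 34.8 on day 1 (2.33) and 28.0 and 33.7 on day 2 (2.20). On day 5 the wild type had 36.9 and 44 CPM of Chaf1a, 17.3 and 19.9 of Chaf1b, 58.9 and 64.4 of Clspn and 29.7 and 40.7 of Tipin. In the knockout Chaf1a had 4.2 and 3.46 CPM, then 32.8 and 34.2, 55.3 and 49.7, and 52.7 and 41.6 after 1, 2 and 5 days, and Chaf1b 3.27 and 3.2, then 12.6 and 13.8, 15.1 and 13.2, and 24.1 and 17.7. Neither overlapped its day 0 libraries later. Clspn had 4.62 and 5.25 there, then 31.6 and 35.2, 63.8 and 51.9, and 83 and 62.5, and Tipin 5.61 and 7.67, then 31.9 and 31.7, 39.7 and 30.8, and 41.7 and 32.2. Clspn thus rose further after day 1 and Tipin did not pass between days 1 and 2.

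**Figure D3:**
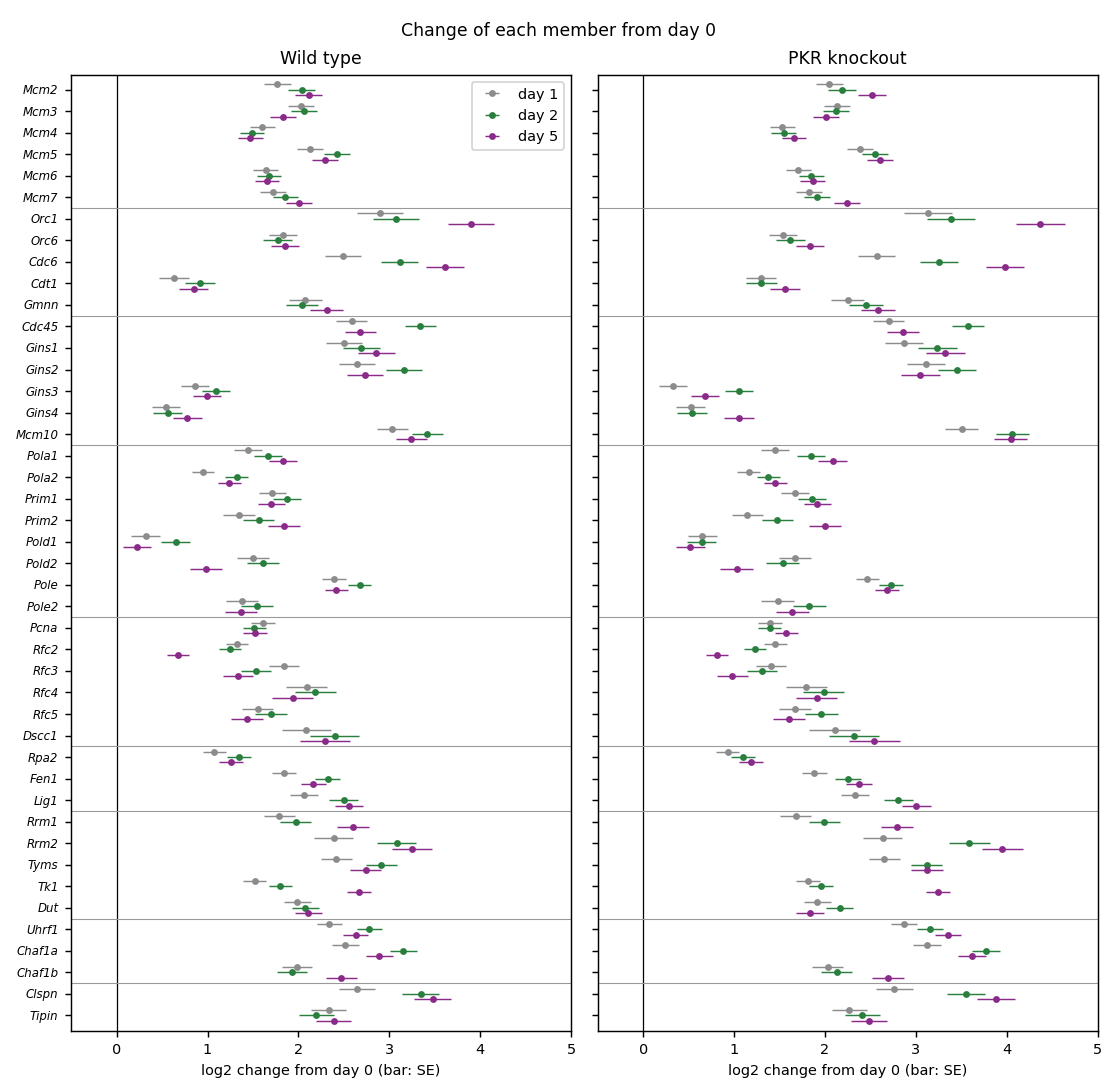
log2 change from day 0 of each of the 44 genes (rows, by role) on days 1, 2 and 5, in the wild type (left) and the PKR knockout (right), with the SE as a bar. All points lie above 0, from 0.22 for Pold1 on day 5 in the wild type to 4.37 for Orc1 on day 5 in the knockout.

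Between day 1 and day 2 some of the members rose again, and none fell. In the wild type 11 of 44 rose, where 16.4% of all genes rose and 15.1% fell, and in the knockout 10 of 44, where 11.3% rose and 10.6% fell. Cdc45, Cdc6, Chaf1a, Clspn, Fen1, Lig1, Rrm2 and Tyms rose in both genotypes, which is 72.7% of the 11 and 80.0% of the 10. Gins2, Pola2 and Uhrf1 passed in the wild type alone and Gins3 and Mcm10 in the knockout alone; the difference between the genotypes in this step was not tested. Cdc45 had the largest change in the wild type (0.75, SE 0.151, adjusted p = 0.0011) and Rrm2 in the knockout (0.96, SE 0.2, adjusted p = 0.00323). Without the library labelled KO_D2 replicate 1 both still passed, Rrm2 changed by 0.69 and Cdc45 led in the knockout (0.78). The median over the members was 0.22 in wild-type and 0.21 in knockout cells, against -0.01 or -0.04 for all genes tested.

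This step in the wild type differed between scales, and the cause was not tested. With edgeR and the size factors of DESeq2 the members' median was 0.24 and 54.8% of all calls were higher. With limma on log2(FPKM + 0.5), which corrects only for total fragments, all tested genes had a median of -0.33, and the share of higher among all calls went from 52.1% to 15.1%. Then the members had a median of -0.11, Cdc45 alone rose, and Mcm4, Orc6, Pcna, Rfc2 and Rfc3 fell. The median of the members lay above that of all genes on this scale too. In the knockout the same scale called 6 members higher (Cdc6, Cdc45, Gins3, Rrm2, Chaf1a and Clspn) and none lower, with 28.6% of all calls higher against 51.5%. By edgeR on counts with the 2 groups fitted alone this share was 64.5%. The fits that leave out a library, given next, were by edgeR on counts of all groups. Without WT_D1 replicate 1 only Cdc45 and Chaf1a passed in the wild type, without WT_D2 replicate 2 it was 4 members and without WT_D1 replicate 2 it was 6. Without KO_D1 replicate 1 or replicate 2 there were 5 and 6 in the knockout, and without the library labelled KO_D2 replicate 1 only Cdc45, Gins3, Rrm2 and Chaf1a passed in the knockout. Summed plasma cell markers rose over the same step (10 of 10 in each genotype), and their part in it was not tested.

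Between day 2 and day 5 the members parted. Orc1, Cdc6, Rrm1, Tk1 and Chaf1b rose in both genotypes, Gins4 and Prim2 rose in the knockout alone, and Cdc45, Pold2 and Rfc2 fell in both. These were 5 higher and 3 lower of 44 in the wild type, beside 16.2% and 13.1% of all genes, and 7 and 3 in the knockout, beside 18.4% and 16%. The shares of members were therefore near or under those of all genes. With a correction for GC content the share of higher among all calls went from 55.2% to 41.2% in the wild type and from 53.4% to 41.4% in the knockout, and 7 and 8 members were lower. Tk1 changed most (0.87, SE 0.122, adjusted p = 2.36e-05 in the wild type and 1.29, SE 0.123, adjusted p = 1.67e-07 in the knockout). Cdc45 fell by 0.66 and by 0.71 on the log2 scale (adjusted p = 0.00279 and 0.00115). Erythroid precursor markers rose over this step in 12 of 12 cases in each genotype, plasma cell markers fell in 8 and 9 of 10, and neutrophil precursor markers rose in 9 and 8 of 10; their part in these changes was not tested. Tk1 was the only member still called higher in the wild type without WT_D2 replicate 1 or without WT_D5 replicate 2. Without the library labelled KO_D2 replicate 1 the knockout had 11 members higher and 1, Cdc45, lower. Without KO_D2 replicate 2 it had 4 higher (Orc1, Cdc6, Rrm1 and Tk1), and without KO_D5 replicate 1 it had 3 (Orc1, Rrm1 and Tk1) and 5 lower. Without KO_D5 replicate 2 Cdc45 alone was lower. Libraries of other groups also enter, since all groups share 1 fit. More members were lower in the wild type without either KO_D0 library, and in the knockout without KO_D0 replicate 2. Whether the spread, the scaling or the filter on low counts made this difference was not tested.

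The order of the days differed among members. In the wild type the mean was highest on day 1 in 4 members, on day 2 in 22 and on day 5 in 18, and in the knockout in 5, 10 and 29. Most of these ranks rest on differences within the spread: 36 of 44 wild-type values and 34 of 44 knockout values did not pass between days 2 and 5.

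Genes of the same processes outside the 44 give the setting; their lists were drawn up with earlier results of these data known. Of 36 other replication factors, 29, 25 and 27 rose and 0, 2 and 4 fell on days 1, 2 and 5 in the wild type, with medians of 0.97, 1.1 and 0.91. Recql4, a helicase of replication initiation, rose most on day 2 (3.07), then Ticrr, which brings CDC45 to the ring (2.98), and Top2a, which untangles the copies (2.97); Orc4 and Orc5 fell by 0.47 and 0.52. In the knockout 23, 25 and 26 rose and 2, 4 and 5 fell; without the library labelled KO_D2 replicate 1, 22 rose and 3 fell on day 2. Of 31 other nucleotide metabolism genes 23, 22 and 20 rose and 3, 4 and 4 fell in the wild type, with Shmt2 (2.02) and Shmt1 (1.83) of folate metabolism among the largest changes on day 2 and Tk2, Rrm2b and Dguok (-0.63), another mitochondrial kinase, at the bottom. In the knockout 23, 21 and 14 rose and 4, 4 and 6 fell, with 20 and 5 on day 2 without that library. The members' medians on these days were higher than those of both lists in each genotype, a difference that was not tested.

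After day 1 the members differed by description from the genes of G2 and mitosis and from the other nucleotide metabolism genes. From day 1 to day 2 the wild-type sum of the members went from 2018 and 2090 to 2294 and 2494 CPM. The sum of the other replication factors rose too, from 1564 and 1708 to 1817 and 1901 CPM. That of the regulators of the entry into S phase went from 756 and 755 to 834 and 827 CPM. The difference between the members and these lists was not tested. The 20 genes of G2 and mitosis rose in 20 of 20 cases on every treated day in both genotypes, and in 20 of 20 again from day 1 to day 2, with medians of 1.00 (wild type) and 1.05 (knockout). Cdc20, Plk1 and Ube2c, which drive mitosis and its exit, led on day 2 against day 0 in the wild type (3.44, 3.40 and 3.21). By limma on the FPKM scale, which corrects only for total fragments, 13 of the 20 rose from day 1 to day 2 in the wild type and none fell. By edgeR fewer than 20 passed in the wild type without WT_D1 replicate 1. The same held in the knockout without the library labelled KO_D2 replicate 1. Of the other nucleotide metabolism genes 2 rose and 15 fell over this step in the wild type and 1 and 9 in the knockout, or 0 and 5 without that library. Shmt1 stood at 4.49 and 4.6 CPM on day 0 in the wild type, 26.2 and 24.1 after 1 day, 14.2 and 18.1 after 2 days and 4.82 and 5.68 after 5 days, back near its starting level while Tyms, which uses the same folate cycle, stayed at 24.2 and 26.9. Among 21 regulators of the entry into S phase, 13, 15 and 17 rose and 3, 2 and 3 fell on days 1, 2 and 5 in the wild type. E2f7 (3.12), an E2F repressor, Ccna2 (2.78) and Ccne2 (2.50), cyclins of S phase, led on day 2, and Ccnd1 (-2.43), a cyclin of G1, and Cdkn1b (-0.98), a cyclin kinase inhibitor, fell. In the knockout 16, 15 and 16 of these 21 rose and 3, 2 and 3 fell, with 15 and 2 on day 2 also without that library.

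**Figure D4:**
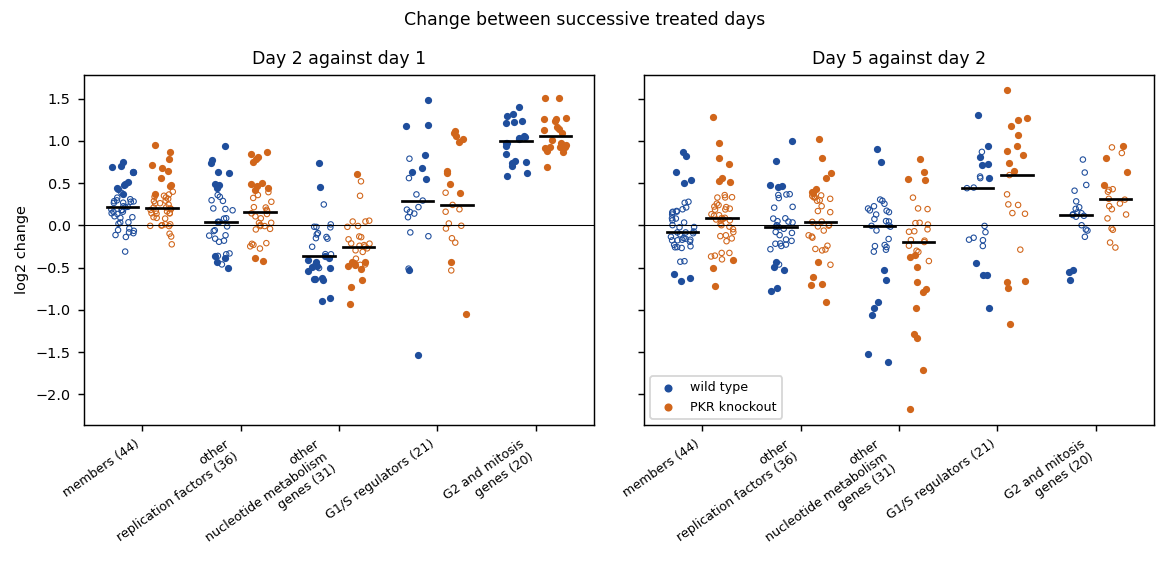
log2 change from day 1 to day 2 (left) and from day 2 to day 5 (right) of single genes in the 44 members and 4 other lists, in wild type (blue) and PKR knockout (orange). Filled points passed the threshold, open points did not, and bars are medians; on the left the genes of G2 and mitosis lie around 1.00 and 1.05, the members around 0.22 and 0.21, and the other nucleotide metabolism genes around -0.36 and -0.25.

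Members that were scarce on day 0 changed more. Spearman's rho between the mean day 0 FPKM of the knockout and the change in the wild type was -0.59 on each of the 3 treated days, and between the day 0 FPKM of the wild type and the change in the knockout it was -0.50, -0.53 and -0.49 (n = 44 genes, with levels and changes taken from different mice). Genes are not independent replicates, and the values are a description. Orc1, Gins2, Mcm10 and Dscc1 were under 0.8 FPKM in every day 0 library and rose by at least 2.09 on day 1 in the wild type, whereas Gins4 and Pold1, at 6.97 to 13.7 FPKM, had the smallest changes. Other members at such levels or above rose more. In the wild type Mcm4 went from 10.3 and 9.45 FPKM on day 0 to 36.4 and 37.2 on day 1, and Pcna from 33.9 and 29.6 to 118 and 119.

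No difference between the knockout and the wild type passed the threshold in any member. The 8 comparisons were the 4 days, the genotype difference in the change of days 1, 2 and 5, and the average over days. Of all genes 0.0213%, 0.187%, 0.0% and 0.00533% were called on days 0, 1, 2 and 5, 0.171%, 0.0% and 0.0% in the changes of days 1, 2 and 5, and 0.0267% in the average. At an unadjusted p under 0.05 there were 4, 0, 0 and 1 members on the 4 days, 4, 2 and 7 in the 3 changes and 0 in the average. Of all genes 5.94%, 9.17%, 4.83% and 6.28% were under it on the days, 13.1%, 4.07% and 7.91% in the changes and 5.57% in the average. The smallest adjusted p of a member was 0.217 by edgeR. DESeq2 called 1 member in the day 5 change, Uhrf1 (0.75, adjusted p = 0.0435), and edgeR without the filter on low counts called Mcm10, Rrm2 and Uhrf1 there (adjusted p = 0.0259 to 0.0406); limma called none. Of 33063 genes DESeq2 called 30 higher and 7 lower in that change, and edgeR without the filter 117 and 39. Without the library labelled KO_D2 replicate 1 edgeR called 0 members in each of the 8 comparisons. On each of the 4 days and in the average, the 95% interval of the difference lay within 1 log2 unit of 0 in all 44 genes, the widest bounds being -0.94 and 0.83. In the changes of days 1, 2 and 5 this held for 36, 39 and 34 genes, so differences of that size were not bounded in the others.

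The knockout had the higher fitted level in 10 of 44 members on day 0 and in 38 of 44 on day 5, and the day 5 change was larger there in 38 of 44. On day 0 the median knockout minus wild-type difference over the members was -0.10 log2, and on day 5 it was 0.17. The median genotype difference in the day 5 change was 0.24. Over all genes tested these medians were 0.001, -0.018 and -0.014. The 44 genes were measured in the same 2 libraries a group and are not independent. The counts are therefore a description and not a test of the genotype. Mcm10 stood at 2.83 and 3.68 CPM on day 0 in wild-type libraries against 2.28 and 2.31 in knockout ones, and at 26.6 and 35.5 against 42.6 and 33.1 on day 5 (difference in the change 0.80, 95% interval 0.25 to 1.35, adjusted p = 0.537). Uhrf1 stood at 19.2 and 22.0 against 16.1 and 14.0 on day 0, and at 120.0 and 135 against 171 and 135 on day 5 (0.72, 0.29 to 1.15, adjusted p = 0.537). Tk1 stood at 37.8 and 41.7 against 53.3 and 45.9 CPM on day 5, where the libraries did not overlap (0.32, 0.04 to 0.60, adjusted p = 0.617). In these genes the higher knockout library on day 5 was KO_D5 replicate 1, which had the highest summed level of the 44 members among all 16 libraries. Summed erythroid precursor markers on day 5 were 4609 and 3551 CPM in the knockout and 2618 and 2136 in the wild type, and their part in these values was not tested.

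**Figure D5:**
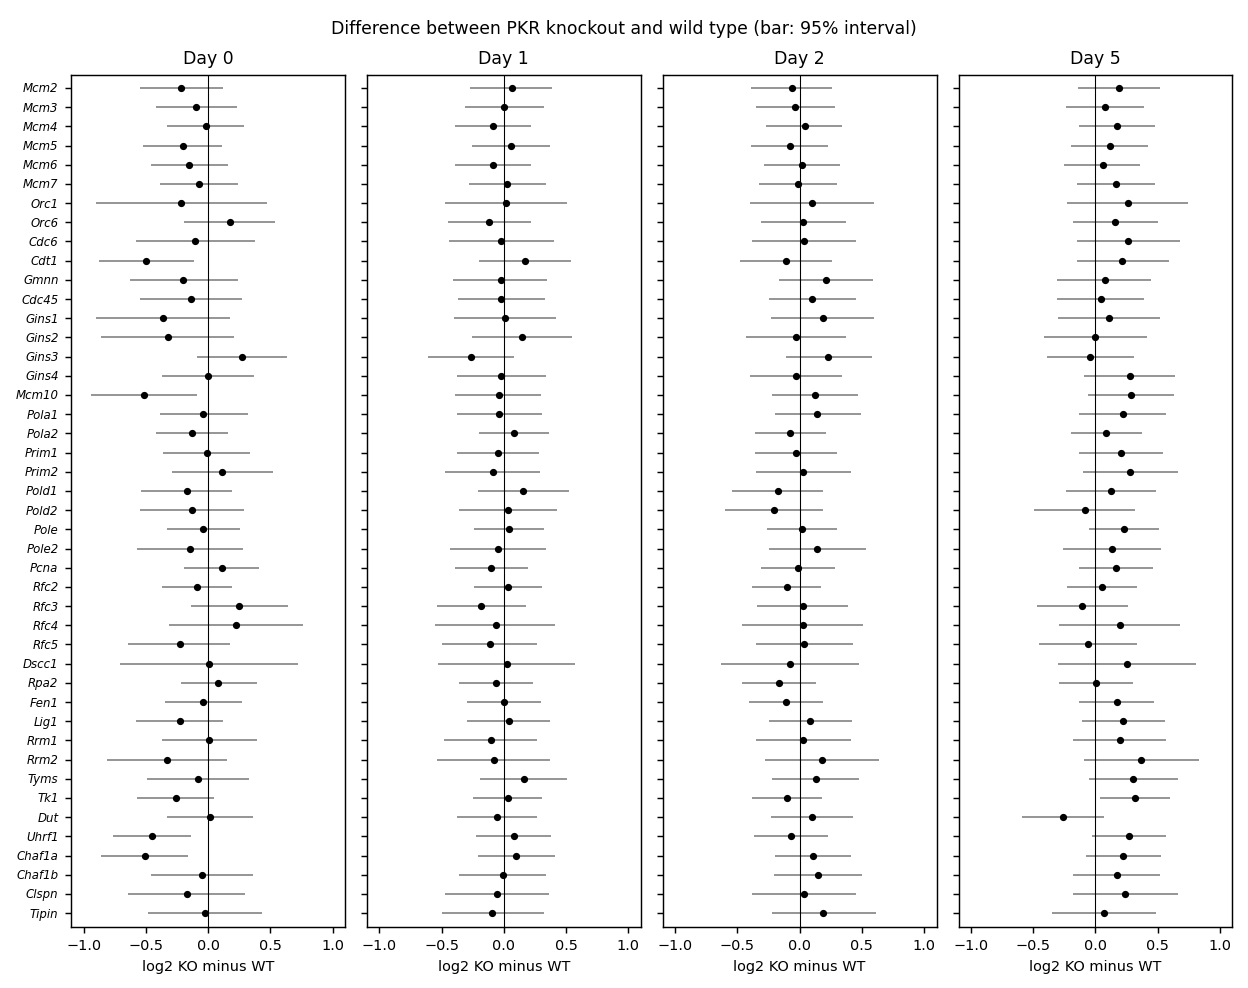
log2 difference of PKR knockout (KO) minus wild type (WT) for each of the 44 genes on days 0, 1, 2 and 5, with its 95% interval as a bar. The intervals lie between -0.94 and 0.83, and most include 0.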

How the data were processed

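The tables give, per transcript, a fragment count, FPM and FPKM. Per the file headers the deposited counts are fragments per transcript, and FPKM as deposited by the authors is the count over total fragments and transcript length. The submitters' processing notes name mm10, bcl2fastq 2.17.1.14, Trimmomatic, HISAT2 and TopHat; the counting program is not given in the sources used here. A fragment is counted in every isoform it overlaps, so 1 transcript was kept per symbol, the protein-coding one with the highest mean count; with any type allowed 8 members would have another. The kept transcripts of all 44 members have the same coordinates in GENCODE M21. Pcna pseudogenes held at most 2.61% of the Pcna count.

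Totals were the count over FPM. edgeR 4.0.16 (R 4.3.3; TMM, filterByExpr, two-sided quasi-likelihood F test with robust estimation, groups as means, residual degrees of freedom 8) was fitted to all 16 libraries, with 18 comparisons, each adjusted by Benjamini-Hochberg over 18745 genes. The SE is the log2 change over the square root of F. Alternatives were DESeq2 1.42.0, limma 3.58.1 on FPKM, other size factors, filters and transcript choices, a GC offset, the compared groups alone, a replicate block and leaving out each library. The members and lists were chosen with earlier results of these data known. Named with values in every library were the members with the largest and smallest change of a role on days 1 and 2 in the wild type and those called against their role; further members named with all libraries were chosen after their values were seen. Of other lists the 3 largest changes on day 2 in the wild type and up to 3 opposite ones were named, except 1 gene that is not reported here, with Shmt1 also shown by library for the same reason. Promoter sequences are from RefSeq.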

Additional observations from a re-analysis of the deposited data

How the results depend on the processing

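Every call of a member in a comparison between days was recomputed under each other setting, which gave 8100 values: 7973 kept direction and call, 127 lost the call and 0 changed sign. The counts against day 0 stayed within 1.5 times in every setting. From day 1 to day 2 in the wild type the 11 higher members became 1 on either FPKM scale and 19 when the 2 groups were fitted alone, and 0 lower became 5 with an offset of 0.5 FPKM and 4 with 0.1; leaving out 1 library gave 2 to 13 higher. In the knockout the 10 became 6 and 5 on these scales and 4 to 11 without 1 library. From day 2 to day 5 in the wild type the 5 higher became 1 to 5 without 1 library, and the 3 lower became 7 with the GC offset, 5 with the 2 groups alone and 2 to 5 without 1 library. In the knockout the 7 higher became 3 to 11 and the 3 lower 1 to 5 without 1 library, and 8 lower with the GC offset. The genotype difference in the day 5 change went from 0 members to 3 without a filter and 1 with DESeq2. The cause of these shifts was not tested. Where a library was left out, the fit also had fewer samples. The call of Cdc6 from day 2 to day 5 in the wild type (adjusted p = 0.049) ended in 15 settings. The averaged genotype comparison uses all groups, so no fit of compared groups alone was run for it.

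Replicate numbers were not used as pairs in the main fit. Deviations correlated at -0.104 to 0.06 between groups of 1 genotype and -0.09 to 0.208 between genotypes of 1 day. The highest values were 0.208 on day 0 and 0.179 on day 2. With 2 libraries a group, these values cannot decide whether libraries of the same number belong together on a given day. With a replicate block, 12 wild-type and 11 knockout members were higher from day 1 to day 2, and 4 lower from day 2 to day 5 in the knockout; the other counts were as without it. With 2 libraries a group, members with few counts, down to 33 in a library, are measured with the least precision.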
